A study of Mus musculus with 2 samples.

Results

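The hairpins described here are annotated mouse miRNA genes from which mostly RNAs of piRNA length were read. They were chosen on measured values, namely the number and the length of the reads: of the 2202 genes of type miRNA in GENCODE release M21 (build GRCm38), 619 had 20 or more exact sense reads in the WT and Hsp90α KO libraries added together, and in 190 of these at least 50% of the reads were 24–33 nt long. The length of the reads is therefore not a result for them, whereas the first base, the base at position 10 and the KO/WT ratio were not used directly. Because counts of both libraries were added, a hairpin could pass through its WT reads, so the ratio is not fully independent of the choice. Of the 190, 187 also passed in WT alone and 172 in KO alone. The WT library was prepared from 20 pooled whole testes of C57BL/6 fetuses at embryonic day 16.5 after natural mating, and the KO library from 20 pooled testes of the same strain and age that lacked Hsp90α, one of the isoforms of the chaperone HSP90. With 1 library per genotype, intervals and tests on reads compare these 2 libraries and cover counting error only. Whole testes hold germ cells and somatic cells, so a smaller share of germ cells cannot be told apart from less small RNA per germ cell.

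The libraries held 6409305 WT and 5589326 KO reads, of which 2523084 and 2561491 lay within annotated hairpins in sense, and levels are given per 1000000 of these hairpin-matching reads (RPM). At this depth 3 reads are 1.19 RPM in WT and 1.17 RPM in KO. Of the 16 marker miRNA symbols that were looked up, 14 were annotated. Mir295 of the germ cell-rich miR-290 cluster stood at 414 RPM in WT and 557 RPM in KO and Mir202 of gonadal support cells at 1996 and 2134 RPM, and the blood miRNA Mir451a was at 229 and 193 RPM. Of the muscle miRNAs, Mir1a-1 and Mir206 had 0 to 3 reads and Mir133a-1 had 50 in WT and 40 in KO, and the liver miRNA Mir122 had 16 reads in WT and 1 in KO. The part of these differences in the ratios below was not tested.

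miRNAs are cut from hairpin precursors by Drosha and Dicer and guide Argonaute proteins to mRNAs through their seed, bases 2 to 8. piRNAs are longer, do not come from hairpins, and guide PIWI proteins, in fetal male germ cells MILI and MIWI2, to transposon RNA. Primary piRNAs tend to begin with U. In the ping-pong cycle a PIWI protein cuts a complementary RNA opposite base 10 of its guide, which yields a secondary piRNA that tends to have A at position 10 and overlaps the first one by 10 nt at the 5′ ends. An annotated hairpin could thus hold long reads if its miRNA is long or if a transposon copy was annotated as a hairpin, among other sources.

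The member hairpins were divided by the mature miRNAs and by the other genes that their reads matched. No repeat annotation was used, so whether they are transposon copies was not tested. For 14 members the most frequent 24–33-nt read began within 2 nt of the 5′ end of a mature miRNA of RefSeq (GRCm38.p6). One of these, Mir3470b, shared most of its reads with many genes and is described with such members, and the other 13 are called mature miRNA members. For these the mature sequence is shown with its seed in capitals, and below it the leading read with the bases past the mature 3′ end in capitals. All such bases were encoded in the hairpin, because only exact matches were counted.

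miR-30e-5p: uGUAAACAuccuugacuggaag
Mir30e leading read: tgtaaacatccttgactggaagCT
miR-30c-5p: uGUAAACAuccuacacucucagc
Mir30c-1 and Mir30c-2 leading read: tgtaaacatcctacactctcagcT
miR-146b-5p: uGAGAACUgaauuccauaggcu
Mir146b leading read: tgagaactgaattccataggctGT
miR-541-5p: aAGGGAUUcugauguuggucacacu
miR-182-5p: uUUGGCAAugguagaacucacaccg
Mir182 leading read: tttggcaatggtagaactcacacc

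In 164 members, Mir3470b among them, at least 50% of the 24–33-nt reads also matched 10 or more genes of other types on either strand. Of 2 of their families, those of Gm28017 and Gm27501, frequent reads of both strands are shown here with the bases at positions 1 and 10 in capitals. In these reads the bases were U and A.

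miR-3470b, seed in capitals: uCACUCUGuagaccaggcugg
Gm28017 sense, 24 nt: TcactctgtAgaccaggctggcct
Gm28017 sense, 27 nt: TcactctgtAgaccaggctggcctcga
Gm28017 antisense, 27 nt: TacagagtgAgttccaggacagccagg
Gm27501 sense, 30 nt: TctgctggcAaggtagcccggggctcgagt
Gm27501 antisense, 26 nt: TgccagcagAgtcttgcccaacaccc

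The Gm28017 reads have the sequence of B1, the most abundant short interspersed element of the mouse, in its antisense orientation, and the reads antisense to the hairpin that of its sense strand. This was recognised from general knowledge of B1, since no repeat annotation was used. The first 10 bases of the sense and antisense reads of Gm28017 are complementary, and so are those of Gm27501. Of the remaining 13 members, 4 lay on rRNA or snoRNA genes with most of their reads and 9 met none of these criteria. The 9 include Mir30d and Snord43, although these are described below beside the mature miRNA members and the rRNA members. This division was made after the values were seen. The 190 members had 107 distinct hairpin sequences, and when members that shared at least 50% of the smaller one's 24–33-nt reads were joined, they formed 30 families. A read that matched several hairpins counts in each of them, so the members of a family are not independent, and for sums each read was counted once.

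Of the 190 members 166 had a KO/WT ratio under 0.5 and 0 a ratio over 2, whereas over all 619 hairpins with 20 or more reads the shares were 32.1% under 0.5 and 0.808% over 2. The 429 hairpins outside the set had a median ratio of 0.978, with 33 under 0.5. The members under 0.5 were unevenly spread over the kinds. They were 160 of the 164 members shared with many genes, 0 of the 13 with a mature miRNA, 0 of the 4 on rRNA or snoRNA genes and 6 of the other 9. The 164 formed only 10 families with shared reads, so the 160 are not separate observations. The 13 formed 11 families, the 4 formed 2 and the 9 formed 7. A first-position U in at least 50% of the 24–33-nt reads was seen in 184 of the 190 members, and an A at position 10 in 115. All 3 features, U, A and a ratio under 0.5, met in 110 members, of which 105 were shared with many genes and 5 were among the other 9.

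**Figure D1:**
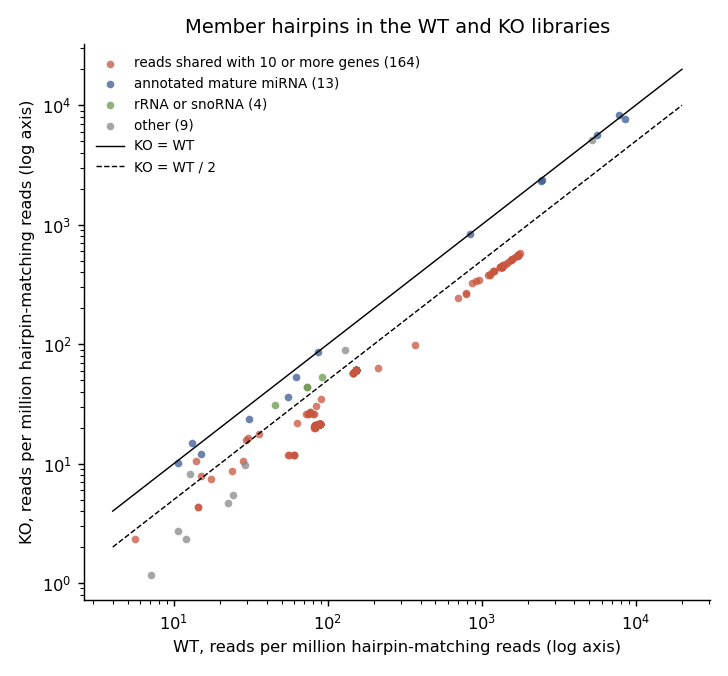
WT and KO levels in RPM, both on log axes, for the 190 member hairpins, with a solid line at equal values and a dashed line at a KO/WT ratio of 0.5. Members with a mature miRNA lie along the solid line, and 160 of the 164 members shared with 10 or more genes lie under the dashed one.

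Over all members, 63545 WT and 59264 KO reads of 24–33 nt gave a KO/WT ratio of 0.919 (95% Clopper-Pearson interval 0.908 to 0.929, exact conditional binomial test p = 5.66e-50). The 24–33-nt reads of the hairpins outside the set, without those shared with members, had a ratio of 1.04 (1.03 to 1.05), and the members' ratio was 0.882 times that (p = 3.05e-75, Fisher's exact test). Mature miRNA members supplied 48991 WT and 49687 KO of these reads, and members shared with many genes 6481 and 1843. The latter had a ratio of 0.280 (0.266 to 0.295). On the same scale, all 24–33-nt reads of the libraries had a ratio of 0.675 (0.673 to 0.676). Those with no hairpin match, whatever their source, had a ratio of 0.638 (0.637 to 0.640). Over all members first U was at 74.6% of the 24–33-nt reads in WT and 76.6% in KO, lower than the 89.2% and 89.5% of hairpins outside the set, and A at position 10 was at 9.47% and 5.24%, against 5.46% and 4.98% (Fisher's exact test for A, p = 2.14e-229 in WT and p = 0.0131 in KO).

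Members with a mature miRNA did not have the features of piRNAs together. Mir30e, in an intron of Nfyc on chromosome 4 (chr4:120772606-120772697, minus strand, GRCm38), had most of the 24–33-nt reads of any member, with 16455 in WT and 17735 in KO. Its ratio over all lengths was 1.05 (1.03 to 1.07). The 24-nt read shown above made up 99.8% of its 24–33-nt reads, whereas the annotated 22-nt form was read 136 times in WT and 144 times in KO. Mir30c-1, also in an intron of Nfyc, and Mir30c-2, in an exon of Gm27028, share this seed and had ratios of 0.967 (0.933 to 1.002) and 0.963 (0.929 to 0.998). Their leading 24-nt read, identical in both, was read 5128 times in WT and 5034 times in KO. Mir30d, in an exon of Gm20732 on chromosome 15, is counted among the 9 members that met none of the criteria. It was read 13207 times in WT and 13089 times in KO, and its leading 24-nt read had the same seed. Across the miR-30 family the share of 24–33-nt reads was 85.0% for Mir30c-2, 83.9% for Mir30e, 83.6% for Mir30c-1 and 56.9% for Mir30d, and 49.0% for Mir30a and 3.01% for Mir30b, which are outside the set. The long form was thus common to most but not all of this family, in both libraries.

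Mir541, in an intron of the imprinted noncoding gene Mirg (chr12:109742409-109742498, plus strand), was the member with most reads of all lengths, 21362 in WT and 19798 in KO, a ratio of 0.913 (0.895 to 0.931). Its leading read was the annotated 25-nt miRNA, with 9058 reads in WT and 8751 in KO, and none of its 24–33-nt reads began with U. Mir182 had 14143 reads in WT and 14507 in KO and a ratio of 1.01 (0.987 to 1.03). Its leading read, 1 nt shorter than the annotated 25-nt miRNA, was read 8209 and 8607 times. Mir146b, in an intron of Mfsd13a, was at 2115 and 2151 reads, a ratio of 1.002 (0.943 to 1.06), and both its first U and its A at position 10 were present in 99.2% of the 24–33-nt reads because 1 sequence made up 99.1% of them. The others were read less. Mir758 had 217 reads in WT and 221 in KO, Mir679 had 156 and 136, and Mir668, also in an intron of Mirg, had 138 and 93. Mir222 had 78 and 61 reads, Mir7-2 had 33 and 38, Mir7-1 had 38 and 31, and Mir677 had 27 and 26.

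The ratios of these 13 members ran from 0.664 for Mir668 to 1.13 for Mir7-2, the highest of all members with 50 or more reads, whose interval was 0.693 to 1.87. The intervals of 3 lay below 1 and that of 1 above it. First-position U was at 100% in the median member, but as a property of 1 to 4 distinct 5′ ends per hairpin. The leading read made up 65.3% to 100% of the 24–33-nt reads. In none of the 13 was any 24–33-nt read antisense to the hairpin.

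First U in at least 50% of the 24–33-nt reads was common to both kinds, in 11 of the 13 mature miRNA members and 163 of the 164 shared with many genes. Members shared with many genes differed in their 5′ ends, leading reads and antisense reads. Their median number of 5′ ends was 31 (range 2 to 66), the leading read made up a median of 22.6%, and 141 of the 164 had 20 or more antisense reads of 24–33 nt. Among their 24–33-nt reads, 75.1% in WT (95% Wilson interval 74.0 to 76.1) and 77.4% in KO (75.5 to 79.3) began with U, whereas U made up 26.1% of the bases at which such reads could begin. A at position 10 was at 63.4% (62.2 to 64.6) and 66.1% (63.9 to 68.2), against 22.3% A among the bases that could be read at position 10. Both shares were slightly higher in KO (Fisher's exact tests between the libraries, p = 0.0395 for U and p = 0.0343 for A). When each distinct sequence was counted once, 49.5% had first U and 31.9% A at position 10, compared with 32.98% and 24.02% of the sequences from hairpins outside the set (Fisher's exact tests, p = 6.65e-15 and p = 5.00e-05). Sequences of different length from the same 5′ end share both bases, so they are not independent and these p-values are too small. In Gm28017, for example, 266 such sequences came from 64 5′ ends. On reads the hairpins outside the set, with Mir10b as their most-read member, were higher in first U, at 89.2% in WT, and lower in A at position 10, at 5.46%.

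**Figure D2:**
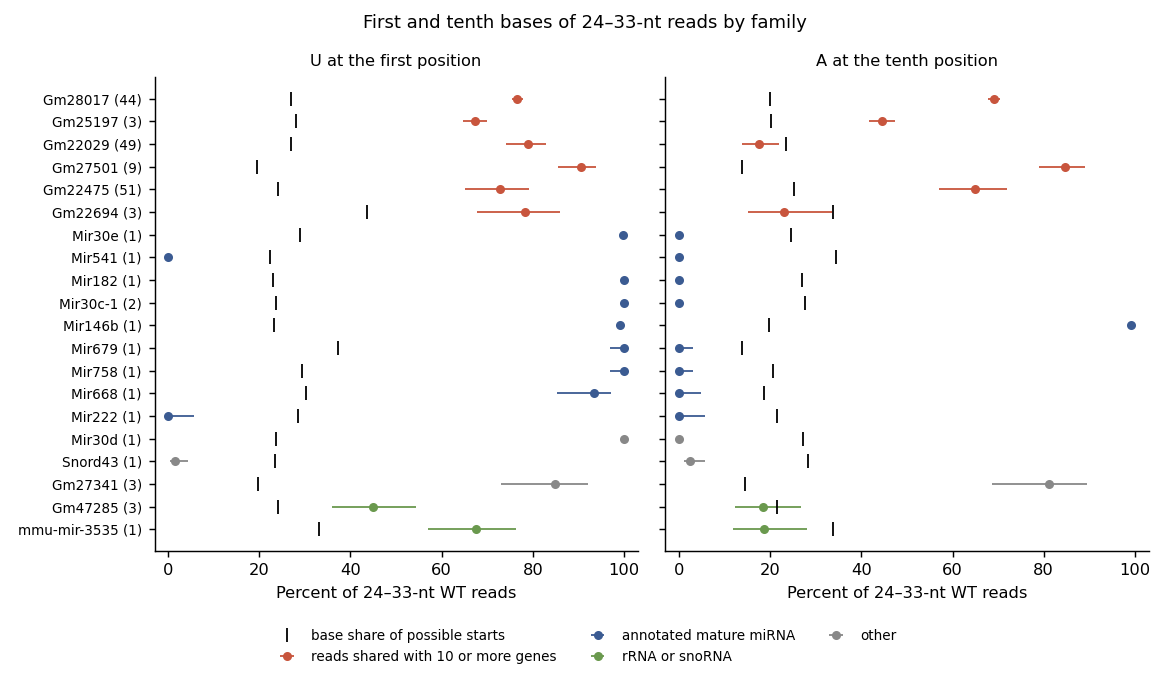
Percent of 24–33-nt WT reads with U at the first position (left) and A at position 10 (right) for families with 50 or more such reads, with the number of hairpins in parentheses, 95% Wilson intervals as bars and the base share of possible start sites as ticks. Families shared with many genes range from 67.3% to 90.5% for first U and from 17.5% to 84.7% for A at position 10, while mature miRNA families stand near 0% or 100% for most.

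The B1-like family led by Gm28017 comprised 44 hairpins of 77 to 126 nt on 17 chromosomes, and had most of the piRNA-length reads shared with many genes, 4690 in WT and 1265 in KO (ratio 0.266, 0.249 to 0.283). Gm28017 itself is intergenic (chr4:129762311-129762436, minus strand) and was read 4489 times in WT and 1470 times in KO, a ratio of 0.323 (0.304 to 0.342). Gm24303 in an intron of Rbm28 had 4350 and 1423 reads, and Gm25534, Gm27634, Gm22398, Gm25731, Gm23638, Gm23681 and Gm27857, the others among the 15 most-read members, had 4328 to 4346 in WT and 1414 to 1419 in KO. These values are nearly equal because the hairpins share their reads. All 44 had ratios under 0.5, between 0.265 and 0.375. First U was at 76.6% and A at position 10 at 69.8% of the reads of the family, and A at position 10 was at 50% or more in 43 of the 44 hairpins. The leading 5′ end supplied 55.3% of the reads, and without it first U was at 47.7%, A at position 10 at 32.5% and the ratio at 0.239 (0.217 to 0.263). The 3 hairpins of the related Gm25197 family had 1187 WT and 320 KO reads (0.266, 0.234 to 0.301). First U was at 67.3% in WT and 73.1% in KO, and A at position 10 at 44.6% and 61.3%. Only 1 of the 3 hairpins had A at position 10 in 50% or more. The leading 5′ end supplied 36.4% of the reads of this family. Without it first U was at 50.6% and A at position 10 at 18.5%, against base shares of 28.2% and 20.1%.

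Mir3470b, a named miRNA gene in this family (chr16:44013852-44013977, plus strand, opposite to an intron of Gramd1c), was read 2186 times in WT and 832 times in KO, or 866 and 325 RPM, a ratio of 0.375 (0.346 to 0.406). Its annotated 21-nt miRNA was read 1 time in WT and 0 times in KO, whereas RNAs of 24–33 nt that began with the same 21 bases, anywhere in the libraries, were read 3447 and 977 times. The mature sequence of miR-3470b is thus the 5′ part of the leading B1-like RNA.

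At the leading 5′ end of Gm28017, base 34 of the hairpin, the reads fell into separate length peaks. The 23-nt read was counted 350 times in WT and 168 times in KO, a ratio of 0.473 (0.391 to 0.570), and the 24-nt read 458 and 213 times, a ratio of 0.458 (0.388 to 0.540). The 25-nt and 26-nt reads were few, with 20 and 15 in WT. The 27-nt read was counted 509 and 115 times, a ratio of 0.223 (0.180 to 0.273), the 28-nt read 399 and 111 times (0.274, 0.220 to 0.339), and the 29-nt read 231 and 52 times (0.222, 0.161 to 0.301). The 30-nt read was counted 72 and 27 times (0.369, 0.228 to 0.582). The intervals at 23 and 24 nt lay above those at 27, 28 and 29 nt, although all these reads began at the same base, while that at 30 nt overlapped both.

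Over all members shared with many genes the ratio was 0.449 (0.413 to 0.488) for 23–24-nt reads and 0.241 (0.224 to 0.260) for 27–29-nt reads. Away from the leading 5′ ends of Gm28017 and Gm25197 it was 0.398 (0.329 to 0.479) and 0.255 (0.230 to 0.282). These lengths were chosen after the values were seen, and no test is given for them. As a whole, the 20–23-nt reads of these members had a ratio of 0.447 (0.405 to 0.493), and their 24–33-nt reads 0.280 (0.266 to 0.295). This contrast overlaps the one above, since 826 of the 1300 WT and 370 of the 590 KO reads of 20–23 nt had 23 nt. Read length was used to choose the members, so no test is given for this contrast either. In mature miRNA members the ratio was 0.932 (0.911 to 0.954) for 20–23 nt and 0.999 (0.987 to 1.01) for 24–33 nt.

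**Figure D3:**
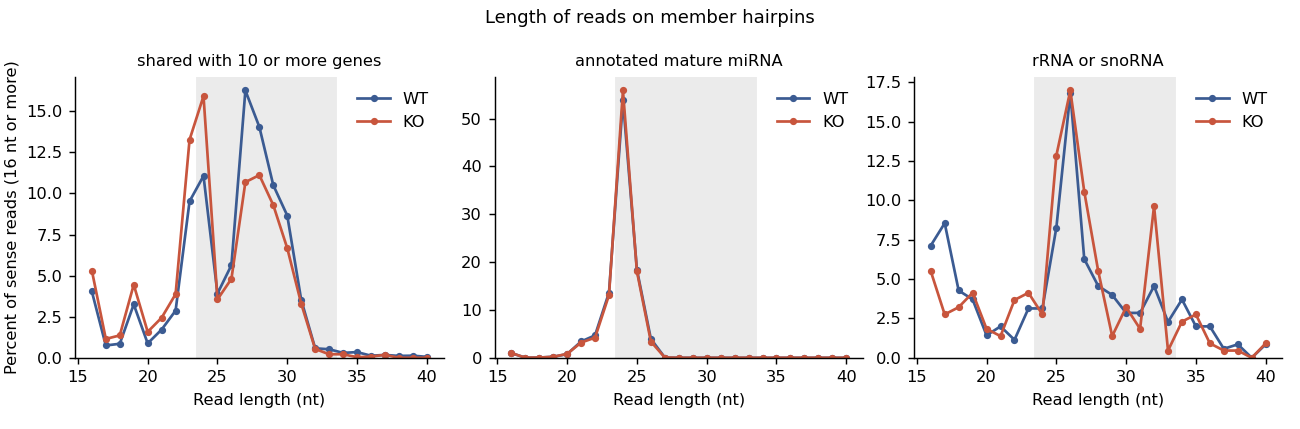
Length of sense reads as a percent of reads of 16 nt or more in WT and KO for members shared with 10 or more genes, with a mature miRNA, and on rRNA or snoRNA genes, with 24–33 nt shaded. The first group has a peak at 23–24 nt that is higher in KO and one at 27–30 nt that is higher in WT, while in the second WT and KO coincide.

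**Figure D4:**
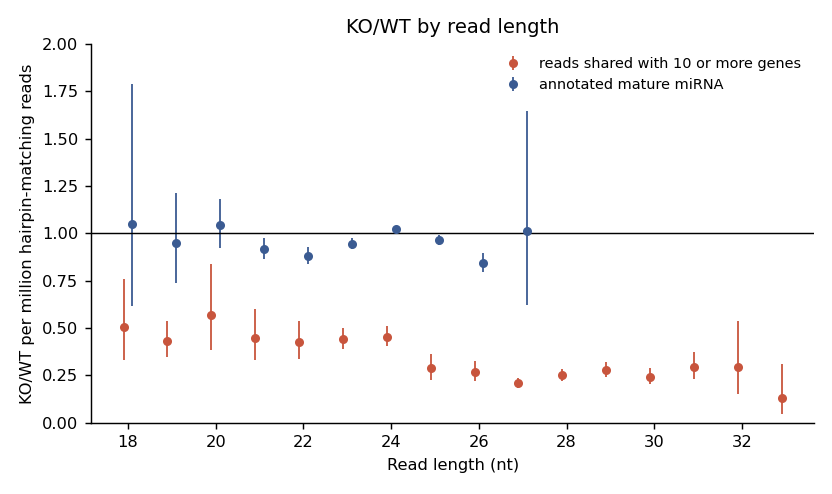
KO/WT ratio of RPM by read length, with 95% Clopper-Pearson intervals, for lengths with 50 or more reads. Members shared with many genes stand at 0.456 at 24 nt and 0.288 at 25 nt, and mature miRNA members stay near 1.

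Sense and antisense reads of Gm28017 were paired as in the ping-pong cycle. Antisense reads of 24–33 nt numbered 181 in WT and 52 in KO. Of all pairs of a sense and an antisense read that overlapped by 1 to 30 nt at their 5′ ends, 44.1% in WT and 34.9% in KO overlapped by 10 nt, against a mean of 1.93% and 2.24% at the other overlaps. In Gm27501, with 317 WT and 183 KO antisense reads, the 10-nt share was 80.9% and 79.9%, and in Gm25197 it was 30.9% and 48.03%. In each case this share rested on a single pair of ends. When that sense end was left out, 10 nt fell to 2.88% and 2.37% in Gm28017 and to 0.159% and 0.137% in Gm27501, and it was no longer the most frequent overlap. In Gm22029 and Gm22475 the 10-nt share was 2.62% and 1.41% in WT, below the mean of the other overlaps, and 1.14% and 6.53% in KO. Of these, the Gm22475 family had A at position 10 in most of its reads and the Gm22029 family did not. Gm22475 had only 40 WT and 14 KO antisense reads, and its KO share lay above the mean of 3.22% at the other overlaps. Its most frequent overlap was 29 nt in both libraries.

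**Figure D5:**
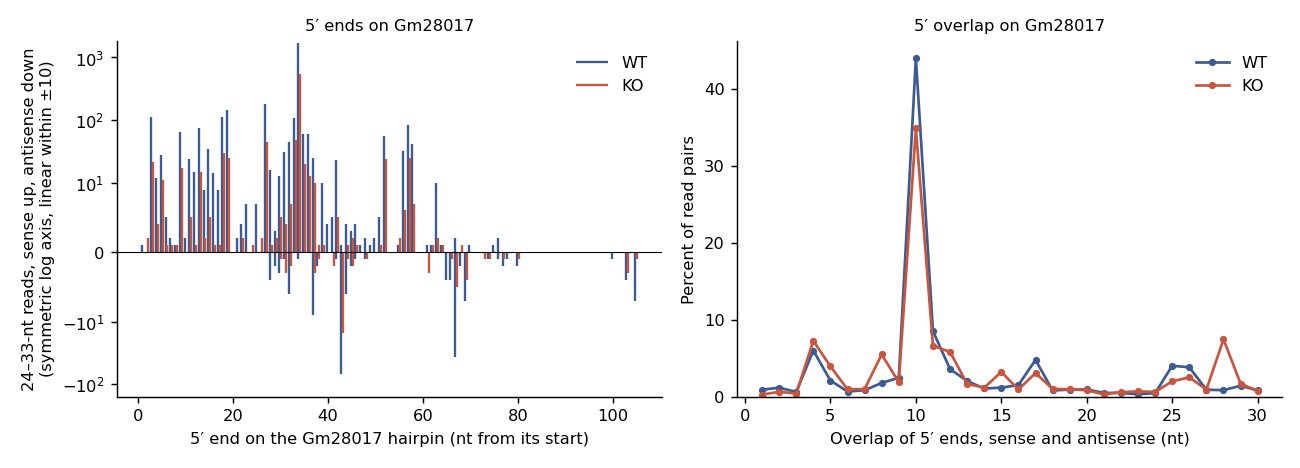
Left, 5′ ends of 24–33-nt reads along the Gm28017 hairpin, sense above and antisense below the axis, on a symmetric log axis. Right, percent of sense and antisense read pairs by 5′ overlap, with a single peak at 10 nt of 44.1% in WT and 34.9% in KO.

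Shorter RNAs lay next to these ends. Of the 16-nt sense reads of Gm28017, 195 of 273 in WT and 78 of 112 in KO ended at the base just before the leading 5′ end, and thus have the sequence ctggctgtcctggaac. Their ratio was 0.394 (0.299 to 0.515), and that of the 24–33-nt reads beginning at the next base 0.311 (0.281 to 0.342), so that the intervals overlapped. The same 195 WT and 78 KO reads also lie just before the leading 5′ end of Gm25197. At that end the 24–33-nt reads had a ratio of 0.417 (0.345 to 0.502), above that of the 16-nt reads, again with overlapping intervals. Of the 19-nt sense reads of Gm28017, 6.55% ended just before its leading 5′ end. In Gm27501 all 49 antisense reads of 19 nt, 24 in WT and 25 in KO, had the sequence ctcgagccccgggctacct and ended just before the leading antisense 5′ end. Their ratio was 1.03 (0.562 to 1.88), and that of the 24–33-nt antisense reads at that end 0.552 (0.454 to 0.669). The ratio of the 19-nt reads was 1.86 times that of the longer ones (p = 0.0437 in Fisher's exact test). That of the 16-nt reads was 1.27 times that of the longer Gm28017 reads (p = 0.101 in Fisher's exact test). These positions were examined after the values were seen. Reads of 16 to 19 nt on both strands of Gm28017, Gm25197 and Gm27501 were looked at, and the p-values are not adjusted for this choice.

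The Gm27501 family had 9 hairpins of 107 nt, with 190 WT and 66 KO reads of 24–33 nt in sense (0.342, 0.255 to 0.455) and more in antisense, 330 and 187 (0.558, 0.464 to 0.670). First U was at 90.6% and A at position 10 at 85.2% in sense, and at 98.3% and 93.8% in antisense. A single 5′ end supplied 82.8% of the sense reads. Without it first U was at 45.5% and A at position 10 at 13.6%, against base shares of 19.6% and 13.9%. Gm27501, intergenic on chromosome 13 (chr13:66586810-66586916, minus strand), was read 227 times in WT and 89 times in KO. Among the 9 members that met none of the criteria, 5 had a first U, an A at position 10 and a ratio under 0.5. These are relatives of Gm27501 rather than a separate kind. The leading reads of Gm27341, Gm27397 and Gm27437 had nearly the sequence of Gm27501 reads, and Gm27341 had the same most frequent antisense reads. Gm27341 and its relatives Gm27910 and Gm27839 on the X chromosome had 53 WT and 10 KO reads of 24–33 nt, a ratio of 0.186 (0.0843 to 0.369), with first U at 85.7% and A at position 10 at 81.0%. A single 5′ end supplied 73.0% of these reads, and without it the 2 shares were 47.1% and 29.4%. Gm27397 had 30 reads in WT and 6 in KO, and Gm27437 had 27 and 7. Gm23726, with 18 and 3 reads, had first U at 46.2% and A at position 10 at 61.5%.

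Families without an A at position 10 formed the other large group. The 49 hairpins of the Gm22029 family, on 15 chromosomes and 120 or 121 nt long, had 331 WT and 130 KO reads (0.387, 0.313 to 0.475). First U was at 78.9% in WT and 89.2% in KO, while A at position 10 was at 17.5% and 10.8%, and only 1 of the 49 hairpins had A at position 10 in 50% or more. Gm22029, opposite to an intron of Ccdc169, was read 387 times in WT and 156 times in KO, and 48 of the 49 had ratios under 0.5. The Gm22694 family of 3 hairpins had 78 WT and 40 KO reads (0.505, 0.336 to 0.749), first U at 82.2%, A at position 10 at 19.5% and 0 antisense reads.

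The 51 hairpins of the Gm22475 family, which includes the named miRNA gene Mir3471-2, had 154 WT and 43 KO reads of 24–33 nt (0.275, 0.191 to 0.388), first U at 72.6% and A at position 10 at 64.5%. All 51 had ratios under 0.5, among them Gm22616, opposite to an intron of Eya1, with the lowest ratio of the members with 50 or more reads, 152 WT against 30 KO reads (0.194, 0.127 to 0.289). The leading read of the family began with the 22 bases of the mature miR-3471. Exactly these 22 bases were read 17 times in WT and 5 times in KO, and RNAs of 24–33 nt that began with them 79 and 21 times (0.262, 0.154 to 0.428). Mir5098, in an intron of Rest, had 36 WT and 11 KO reads (0.301, 0.138 to 0.604).

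Reads antisense to the members shared with many genes numbered 3141 in WT and 1041 in KO (ratio 0.327, 0.304 to 0.350), with first U at 84.2% and A at position 10 at 80.3% in WT. This sum repeats some sense reads, because hairpins of both orientations are annotated. Gm25193, in an intron of Atp6v1e1, carries B1 in the opposite orientation, with 24 WT and 8 KO sense reads of 24–33 nt but 2137 and 664 antisense reads, the same RNAs that were sense for Gm28017.

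The 3 members cut from 5S rRNA copies, Gm47285, Gm47276 and Gm47281, had 109 WT and 78 KO reads of 24–33 nt (0.705, 0.520 to 0.951), with first U at 52.9%, A at position 10 at 16.6% and 0 antisense reads. The hairpin mmu-mir-3535 in an intron of Ncl had 114 and 79 reads of all lengths (0.683, 0.506 to 0.917). Snord43, a small nucleolar RNA annotated here as a miRNA gene in an intron of Rpl3, is counted among the 9 members that met none of the criteria. It had 324 and 228 reads (0.693, 0.583 to 0.824), of which 1.04% of those of 24–33 nt began with U. Mir669c had 32 and 21 reads.

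When members were divided by their first base, as the design laid down, the 184 with U in at least 50% of reads had a KO/WT ratio of 0.921 (0.909 to 0.932) and the other 6 a ratio of 0.912 (0.890 to 0.933), so that the first was 1.01 times the second (p = 0.482, Fisher's exact test). The U-first members include the most-read miRNAs with ratios near 1, among them Mir30e and Mir182. By their other matches, 72.3% of the members' 24–33-nt reads matched the hairpins alone, with a ratio of 1.002 (0.989 to 1.02). With structural RNAs counted first, 5.95% matched such genes (0.289, 0.273 to 0.305) and 1.06% matched 10 or more other genes. With the latter counted first the shares were 0.147% and 6.86%, since 83.3% of the reads of members shared with many genes also matched 17 genes of the mixed class misc_RNA.

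In structure the kinds differed too. The predicted minimum free energy per nt was a median of −0.298 kcal/mol for members shared with many genes, −0.412 for mature miRNA members and −0.419 for the 429 hairpins outside the set, with median lengths of 121, 84 and 84 nt. Each hairpin was given 1 place, exons before introns and the same strand before the opposite one, so further genes opposite to it were not recorded. Of the 164 members shared with many genes, 91 were intergenic, 33 lay in introns on the same strand, 39 in introns on the opposite strand and 1 in an exon. Of the 13 mature miRNA members, 5 were intergenic, 7 lay in introns on the same strand and 1 in an exon on the same strand.

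The threshold of 50% separated hairpins of the same kind. Just inside it were Gm25193 (50.8%), Gm47285 (50.8%) and Gm27773 (51.0%), and just outside Gm47301 (49.9%) and Mir669p-1 and Mir669p-2 (49.2% each). Outside the set, 28 hairpins were shared with many genes in the same way, with a median of 38.0% of reads of 24–33 nt, and 23 of them had ratios under 0.5, compared with 10 of the remaining 401. Their 24–33-nt reads not shared with members, 510 in WT and 158 in KO, had a ratio of 0.305 (0.254 to 0.365), and the members' ratio was 0.918 times theirs (p = 0.359, Fisher's exact test). Of the hairpins outside the set, Mir10b, Mir30a, Mir125a, Mir10a and Mir351 had most reads of 24–33 nt, with ratios over all lengths of 0.988, 1.02, 1.07, 1.13 and 0.951.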

How the data were processed

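Small RNA from whole testes was converted to libraries with the TruSeq Small RNA kit and sequenced as 50-bp single reads on a MiSeq. The authors clipped adaptors and deposited, for each library, a list of the sequences read (11 to 48 nt) with the raw count of each, with no normalization and no coordinates. Build mm9 is named in the submitters' processing notes, but coordinates here are those of GENCODE M21 (GRCm38).

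Sequences of 16 nt or more were matched exactly to all GENCODE M21 transcripts on both strands (numba 0.67.0). Counts were divided by all exact sense reads within miRNA genes, the members included, whereas the study scaled to reads that it mapped to miRBase. Each ratio was given a Clopper-Pearson interval and tested by an exact binomial test conditional on the summed count, shares were given Wilson intervals (95%), and counts were compared with Fisher's exact test (scipy 1.17.1). On simulated counts for the 619 hairpins the ratio interval held the true value in 94.2% of cases. Folding used RNAfold 2.7.2, and mature sequences came from RefSeq (GRCm38.p6), where 15 of the 190 members were found by symbol. P-values measure the sampling of reads of 2 libraries, made with PCR and without molecular identifiers.

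Named members were the 15 with most reads, the highest and lowest ratio among those with 50 or more reads, 3 hairpins nearest the threshold on each side, and the 5 others with most 24–33-nt reads. Members with 20 or more antisense reads were too many and were described by family, and the other members named were chosen after their values were seen. The members and lists were chosen with earlier results of these data known. Alternatives covered the normalizing total, the read minimum, the length window and distinct sequences. The other libraries of the study were not analysed here.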

Additional observations from a re-analysis of the deposited data

How the results depend on the processing

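No paired analysis was possible because each genotype has 1 library, and no replicate could be left out. The number of members was 190, and 69 with a share of at least 75% of 24–33 nt and 12 when only reads matching no gene of another type were kept, 6.32% of the members. The other alternatives gave 175 to 197. The count of ratios under 0.5 was 160 to 166 in all alternatives run. The pooled ratio of 0.919 was 1.07 when scaled to all reads of the library, 1.02 with the 75% share and 1.002 for reads without other matches. For mature miRNA members alone it was 0.999 (p = 0.876 by the exact binomial test). It was 0.592 over distinct sequences and 0.460 for 26–32 nt. First U, lower than outside the set on reads (74.6%), was higher over distinct sequences (50.0%), with the 75% share (99.3%) and for 26–32 nt (51.0%). A at position 10, higher than outside (9.47%), was lower with the 75% share (5.90%) and in mature miRNA members (3.65%), and 4.08% without other matches, against 4.23% outside (Fisher's exact test, p = 0.185). The quotient of U-first members to others, 1.01, was 1.14 (reads without other matches), 0.932 (without Mir30e), 0.351 (26–32 nt) and 1.13 (mature miRNA members), each past 0.05 by Fisher's exact test. The restriction to kinds of members was added after the data were seen. Families with few reads, such as Gm27397 with 36, and all antisense subsets are limited by depth.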
